A study of Mus musculus with 50 samples.

Results

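The enzymes that remove superoxide and peroxides were followed as mRNA in mouse kidney, liver and cultured skin fibroblasts. The members were 10 genes taken by symbol from the gene count files, of 24984 genes counted in all. They were the superoxide dismutases Sod1, Sod2 and Sod3, the catalase gene Cat, the glutathione peroxidases Gpx1, Gpx3 and Gpx4, and the peroxiredoxins Prdx1, Prdx3 and Prdx6. RNA-seq covered 38 libraries in 10 groups. Kidney and liver came from untreated female C57BL/6 mice, young (2.5 months, 4 libraries per tissue) or old (23 to 25 months, 4 per tissue). A further set came from mice of 20 to 21 months whose kidney and liver were labelled as treated with the solvent DMSO or with 3C (4 per tissue and treatment), and all of these mice were old. Skin fibroblasts labelled P9 were given DMSO or 3C (3 libraries each). The labels do not say what 3C or P9 is, nor whether kidney and liver of the same number came from the same mouse. ATAC-seq, which marks open chromatin, covered young and old kidney and liver (3 libraries each).

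Superoxide is a by-product of respiration and of the NADPH oxidases, and the dismutases turn it into hydrogen peroxide. Catalase breaks hydrogen peroxide down in peroxisomes, glutathione peroxidases reduce it with glutathione, and peroxiredoxins reduce it through a reactive cysteine that is mostly restored by thioredoxin. Kidney and liver are rich in mitochondria and peroxisomes, and kidney tubule cells are the known source of the glutathione peroxidase of plasma, GPX3.

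On the mouse build GRCm38, the dismutase genes were Sod1 at chr16:90220754-90226329 (plus strand), Sod2 at chr17:13006846-13040063 (plus) and Sod3 at chr5:52363791-52371418 (plus). Cat lay at chr2:103453849-103485160 on the minus strand. The glutathione peroxidase genes were Gpx1 at chr9:108338903-108340343, Gpx3 at chr11:54902453-54910377 and Gpx4 at chr10:80047166-80056439, all on the plus strand. The peroxiredoxin genes were Prdx1 at chr4:116685544-116700822 (plus), Prdx3 at chr19:60864051-60874556 (minus) and Prdx6 at chr1:161240112-161251219 (minus). No exon of a member overlapped an exon of another annotated gene. Near-identical copies elsewhere in the genome (at least 90% identity over 300 bp) were found for Sod1 (1 pseudogene), Gpx4 (2 genes, 1 of them a pseudogene), Prdx1 (3 pseudogenes) and Prdx6 (Prdx6b, which the files count separately), so reads of these members may be split or dropped.

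Promoters were searched for the antioxidant response element, the site of the stress factor NRF2, and for the AP-1 site, the sequence bound by the FOS and JUN factors. The RefSeq promoter table (GRCm38.p6, 250 bases before to 50 after each start) held 8 of the 10 members, without Sod3 and Prdx6. The letters TGACNNNGC, on either strand, stood in 2 of the 11 member promoters, those of Sod1 and Prdx1, and in 12.4% of the 32851 promoters of all genes. The AP-1 letters TGANTCA stood in 1 of the 11, the promoter of Prdx1, and in 7.81% of all promoters. The GC box GGGCGG stood in 10 of the 11 promoters of the 8 members and in 35.7% of all promoters. The 3 stretches that follow are shown because they hold the only matches to the stress elements among the members. In each, capitals mark the match on the plus strand. Both response element matches read as the reverse complement of the searched letters, and the element of Prdx1 overlaps an AP-1 match.
Prdx1 response element, match 133 bases before the start: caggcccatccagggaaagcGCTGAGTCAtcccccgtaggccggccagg
Prdx1 AP-1 match, 237 bases before the start: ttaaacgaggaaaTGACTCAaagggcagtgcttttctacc
Sod1 response element, match 56 bases before the start: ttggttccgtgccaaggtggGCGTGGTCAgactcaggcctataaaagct
They lie at chr4:116685446-116685494, chr4:116685349-116685388 and chr16:90220686-90220734. The strongest promoter ATAC-seq peak covered the whole Sod1 stretch in 12 of 12 libraries and each Prdx1 stretch in 10 of 12.

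Total gene counts per library ranged from 14238228 to 43704147, and the lowest count of any member was 101 reads, for Gpx3 in liver. The 8 kidney tubule markers summed to 8611 to 13179 CPM (read counts scaled to a common library total with TMM factors) in kidney libraries and to at most 15.9 in liver, and the 8 hepatocyte markers to 106520 CPM or more in every liver library. Old kidney replicate 2 held 2800 CPM of hepatocyte markers, where the other old kidney libraries held 74.5 to 124. The 8 macrophage markers summed to 125 to 152 CPM in young kidney and 594 to 1158 in old kidney. The DMSO and 3C libraries carried no non-unique reads in their tallies while the others did, so levels were not tested between these sets. Young and old libraries also differed in the level of short genes (exons under 1000 bp). The median log2 deviation of these genes from the tissue mean was 0.31 and 0.56 in old kidney replicates 1 and 3, 0.26 in young kidney replicate 4, 0.50 in young liver replicate 4 and 0.74 in old liver replicate 1, and it was negative in the other 11.

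The order of levels separated kidney, liver and fibroblasts. Per length, as FPKM (CPM with TMM factors, per kilobase of RefSeq exon), Gpx3 took 80.2% ± 0.44 (SD, n = 4) of the summed level of the 10 mRNAs in young kidney. It took 79.2% ± 1.9 (n = 4) in old kidney, 79.1% ± 1.1 (n = 4) with DMSO and 80.4% ± 1.3 (n = 4) with 3C. The secreted peroxidase thus exceeded the other 9 members together in every kidney group. In young liver its share was 0.069% ± 0.021 (n = 4), and Gpx1, the general cellular glutathione peroxidase, led with 40.3% ± 0.72 (n = 4). Sod1, the cytosolic copper and zinc dismutase, followed with 19.3% ± 0.93 in young liver, and Cat with 16.7% ± 2.4.

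**Figure D1:**
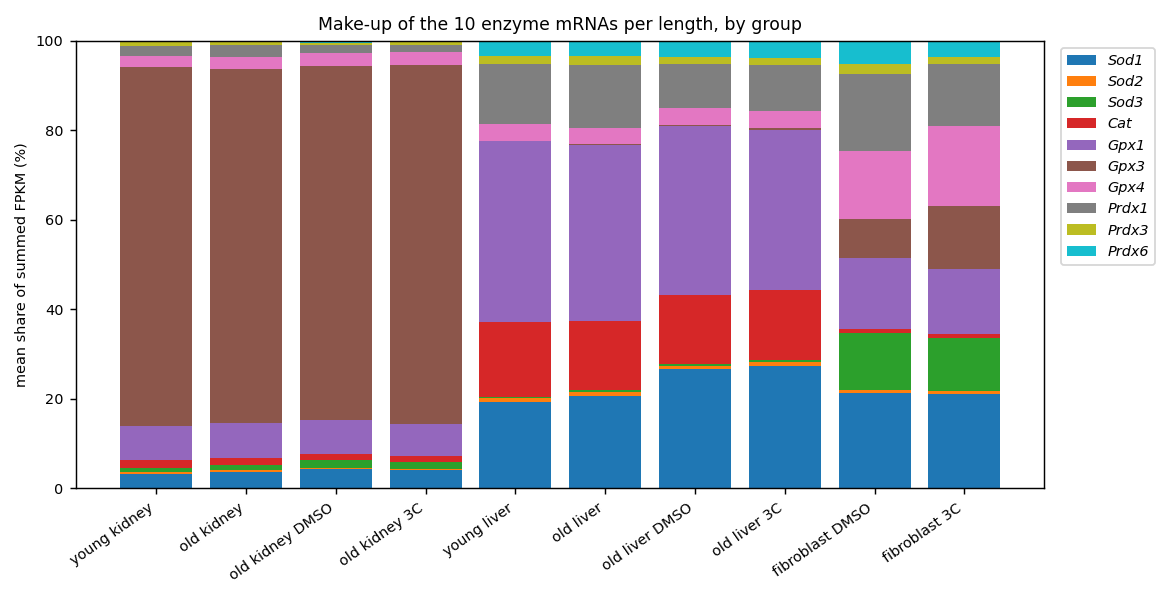
Stacked bars give the mean share (%) of each of the 10 enzymes in their summed FPKM, for each RNA-seq group. Gpx3 makes up 79.1 to 80.4% in the 4 kidney groups, Gpx1 is the largest share in the 4 liver groups, and Sod1, at a RefSeq length of 637 bp, is the largest in fibroblasts.

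In fibroblasts with DMSO, Sod1 was highest per length at 448 ± 92 FPKM (SD, n = 3), above Prdx1 at 357 ± 26, Gpx1 at 334 ± 44 and Gpx4 at 322 ± 34. This order rests on the RefSeq exon length of 637 bp for Sod1, where the merged GENCODE exons span 3970 bp. Without division by length Sod1 was at 285 CPM, below Sod3 (544), Prdx1 (505), Gpx4 (377), Gpx1 (349) and Gpx3 (289). Sod3, the dismutase of the extracellular space, stood at 266 ± 63 FPKM and took 12.6% of the sum. Cat, at 18.4 ± 3.3 FPKM, and the mitochondrial dismutase Sod2, at 15.3 ± 0.94, were lowest. The summed level of the 10 mRNAs was 2093 ± 251 FPKM in these cells, 10033 ± 1416 (n = 4) in young liver and 20820 ± 2606 (n = 4) in young kidney. These sums depend on the TMM factors. Without them Gpx1 in young liver was at 2414 CPM rather than 4233. Gpx3 in young kidney was then at 32389 CPM rather than 26993, and Sod3 in DMSO fibroblasts at 700 rather than 544. The fibroblasts also belong to the set without non-unique reads in its tallies.

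**Figure D2:**
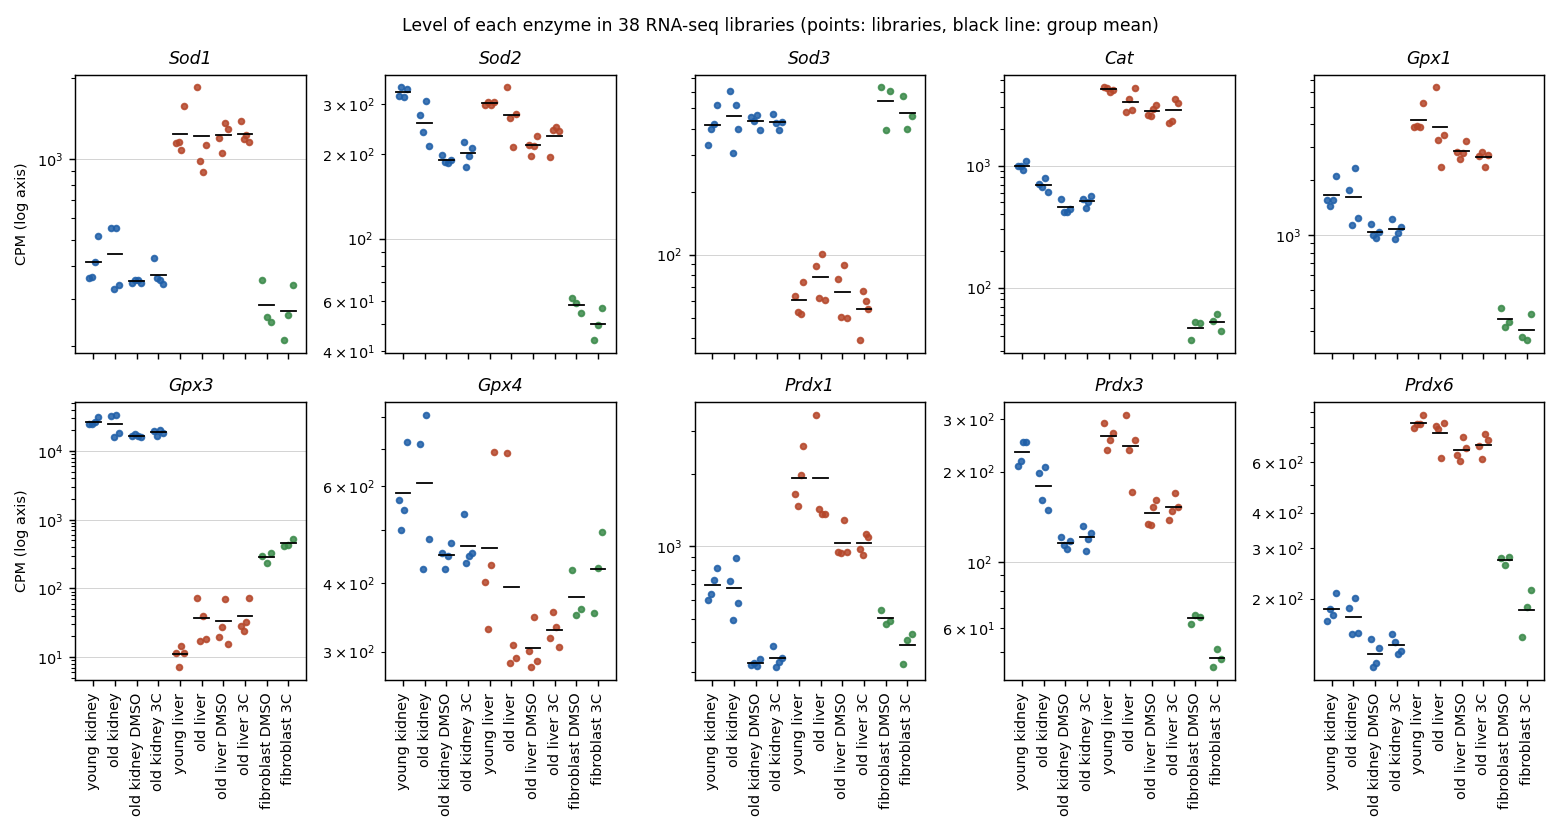
Each panel shows 1 enzyme, each point 1 library and each black line a group mean, in CPM on a log axis that differs between panels. Kidney is blue, liver red and fibroblasts green. Gpx3 lies at 15930 CPM or more in every kidney library and at 73.4 CPM or less in every liver library, while Gpx4 spans less than the other enzymes.

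Across the 10 groups the members differed in how far their means spread, given here in CPM. Gpx3 spanned 2434-fold, from 11.1 in young liver to 26993 in young kidney. Cat spanned 89.97-fold, from 46.9 in DMSO fibroblasts to 4220 in young liver. Gpx1 spanned 13.9-fold and Sod3 9.86-fold, the latter from 55.2 in 3C liver to 544 in DMSO fibroblasts. Sod2, Prdx6, Prdx1, Prdx3 and Sod1 spanned 4.58- to 6.59-fold. Gpx4, which reduces lipid peroxides in membranes and guards against ferroptosis, spanned 1.99-fold, from 304 in DMSO liver to 607 in old kidney. These spans, and the order that follows, cross sets of libraries whose tallies of non-unique reads differ. Prdx1, for one, was at 672 in old kidney and 327 in DMSO kidney, and at 1917 in old liver and 1028 in DMSO liver. The part of the set in these spans was not tested. When the groups were put in order, the libraries of all 9 neighboring pairs overlapped for Gpx4, 8 of 9 for Sod1 and Sod3, 7 of 9 for Sod2, Gpx1 and Prdx6, 6 of 9 for Prdx1 and 5 of 9 for Cat, Gpx3 and Prdx3. Without TMM factors, 6 members kept their highest group. Prdx3 was then highest in young kidney, and Sod1, Prdx1 and Prdx6 in another liver group than young liver.

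Kidney and liver were compared within young mice, within old mice and within DMSO mice. In young mice 7 of 10 members passed an adjusted p of 0.05 (edgeR quasi-likelihood test, Benjamini-Hochberg over all genes tested), with 2 higher and 5 lower in kidney. The share of all tested genes that passed was 65.4%, 35.1% higher and 30.2% lower. In old mice the counts were again 2 higher and 5 lower (54.9% of all genes, 30.1% higher and 24.7% lower), and with DMSO 3 higher and 6 lower (71.9% of all genes, 38.7% higher and 33.2% lower). The groups did not overlap for 8, 7 and 9 members, against 60.4%, 52.2% and 67.6% of all genes. Most tested genes thus passed between these tissues as well.

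Gpx3 was the member with the widest tissue difference. Its levels were 25047, 24575, 26704 and 31648 CPM in young kidney. In young liver they were 11.3, 7.1, 14.5 and 11.5 CPM. The lowest kidney value lay far above the highest liver value, and the log2 difference was 11.24 (SE 0.36, edgeR adjusted p = 1.4e-10). In the other sets the log2 difference was 9.41 (SE 0.81) in old mice and 8.99 (SE 0.56) with DMSO.

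Sod3 was the second member higher in kidney. Its levels were 334, 398, 419 and 516 CPM in young kidney. They were 63.5, 52.9, 51.8 and 73.8 CPM in young liver, with no overlap. The log2 difference was 2.77 (SE 0.18, edgeR adjusted p = 6.2e-08) in young mice, 2.54 (SE 0.29) in old mice and 2.74 (SE 0.19) with DMSO.

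Prdx6, a peroxiredoxin that also acts on phospholipid peroxides, and Cat were the members furthest below liver. Prdx6 stood at 168, 184, 175 and 209 CPM in young kidney. It stood at 793, 815, 814 and 882 CPM in young liver, so that every liver value was above every kidney value. The log2 difference was -2.18 (SE 0.14, edgeR adjusted p = 3.7e-08), and it was -2.15 (SE 0.22) in old mice and -2.35 (SE 0.12) with DMSO. Cat ran from 925 to 1089 CPM in young kidney and from 4006 to 4396 in young liver. Its log2 difference was -2.09 (SE 0.15, edgeR adjusted p = 1.4e-07), -2.28 (SE 0.30) in old mice and -2.61 (SE 0.15) with DMSO.

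The cytosolic enzymes Sod1, Gpx1 and Prdx1 were lower in kidney in all 3 sets, by log2 differences of -1.29 to -1.79. The weakest of these was Gpx1 in old mice (log2 -1.29, SE 0.41, edgeR adjusted p = 0.0238), which did not pass without old kidney replicate 1 (adjusted p = 0.0520) or replicate 4 (adjusted p = 0.0713). Among the mitochondrial members, Sod2 passed in none of the 3 sets (log2 0.11, SE 0.11, in young mice, -0.10, SE 0.21, in old mice and -0.15, SE 0.087, with DMSO). Prdx3, the mitochondrial peroxiredoxin, was lower with DMSO (log2 -0.31, SE 0.090, edgeR adjusted p = 0.00861) and did not pass in young (log2 -0.19, SE 0.13) or old mice (log2 -0.45, SE 0.22). Leaving out DMSO liver replicate 2 brought Sod2 to log2 -0.22 (adjusted p = 0.0452), and leaving out old liver replicate 3 brought Prdx3 to log2 -0.60 (adjusted p = 0.0367). Both genes depended on the correction for gene length and GC content. Once that trend was removed, Sod2 was lower in kidney in young mice (log2 -0.43, edgeR adjusted p = 0.0253) and with DMSO (log2 -0.66, adjusted p = 5.5e-05). Prdx3 was instead higher in young kidney (log2 0.39) and lost its call with DMSO (log2 0.03). Upper quartile size factors also ended the DMSO call of Prdx3 (log2 -0.16, edgeR adjusted p = 0.118). Gpx4 was higher with DMSO (log2 0.58, SE 0.10, edgeR adjusted p = 0.000293), and its values in young and old mice (log2 0.32, SE 0.23, and 0.61, SE 0.36) did not pass. With the trend removed the DMSO call was lost (log2 0.14, adjusted p = 0.150). Gpx4 passed without young liver replicate 4 (log2 0.57, adjusted p = 0.0110) and without old liver replicate 1 (log2 1.03, adjusted p = 0.0129), the libraries of their groups in which short genes were highest.

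Age in the kidney came with less Cat. Catalase mRNA was 996, 988, 925 and 1089 CPM in the 4 young kidneys. It was 703, 672, 796 and 608 CPM in the 4 old kidneys. All old values lay below all young values. Cat fell by 27.7%, a log2 difference of -0.47 (SE 0.11, edgeR adjusted p = 0.0254). It was the only member to pass, 1 of 10, where 11.5% of all genes passed in either direction and 3.36% fell. The Cat difference was below 0 under all 17 other settings and passed in 10 of them. Without young kidney replicate 1 or 2 its adjusted p was 0.0591 or 0.0715, and without old kidney replicate 1 or 4 it was 0.0665 or 0.0852. Without old kidney replicate 2, which carried hepatocyte transcripts, it was 0.0299. In bulk tissue, fewer cells of a type and less RNA per cell cannot be told apart. All 8 macrophage markers, all 5 B and plasma cell markers and 4 of 5 T cell markers rose in old kidney, 2 of 8 tubule markers fell, and their part in the Cat difference was not tested.

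The mitochondrial pair also lay lower in old kidney without passing. Sod2 was 320, 344, 316 and 339.7 CPM in young kidney and 274, 238, 306 and 212 in old kidney. Prdx3 was 209, 218, 251 and 251 CPM in young kidney and 198, 160.4, 207 and 148 in old kidney. Neither gene's young and old values overlapped, as for 3 of 10 members and 19.6% of all genes. The log2 differences were -0.30 (SE 0.11, edgeR adjusted p = 0.117) for Sod2 and -0.32 (SE 0.13, adjusted p = 0.124) for Prdx3. With the length and GC trend removed, Prdx3 passed (log2 -0.63, adjusted p = 0.00275), while Sod2 went to log2 -0.06 (adjusted p = 0.858).

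The other 7 members gave log2 differences between -0.05 and 0.18 with age in kidney, with SE up to 0.23. Their old values were split. Sod1 was 552, 326, 550.3 and 339 CPM in old kidney, and 359.9 to 517 in young kidney. Gpx3 was 32138, 16220, 34118 and 18451 CPM in old kidney, and 24575 to 31648 in young kidney. In both, the old kidney replicates 1 and 3, in which short genes were high, were above every young value, and replicates 2 and 4 were below every young value. With the length and GC trend removed, 5 members passed, all lower in old kidney, namely Cat (log2 -0.73), Prdx3, Gpx3 (log2 -0.53), Gpx1 (log2 -0.51) and Gpx4, which changed sign (log2 0.11 to -0.41). That setting also moved the median log2 difference of all genes from 0.02 to -0.11, and the genes called from 1182 higher and 487 lower to 1112 higher and 2188 lower.

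**Figure D3:**
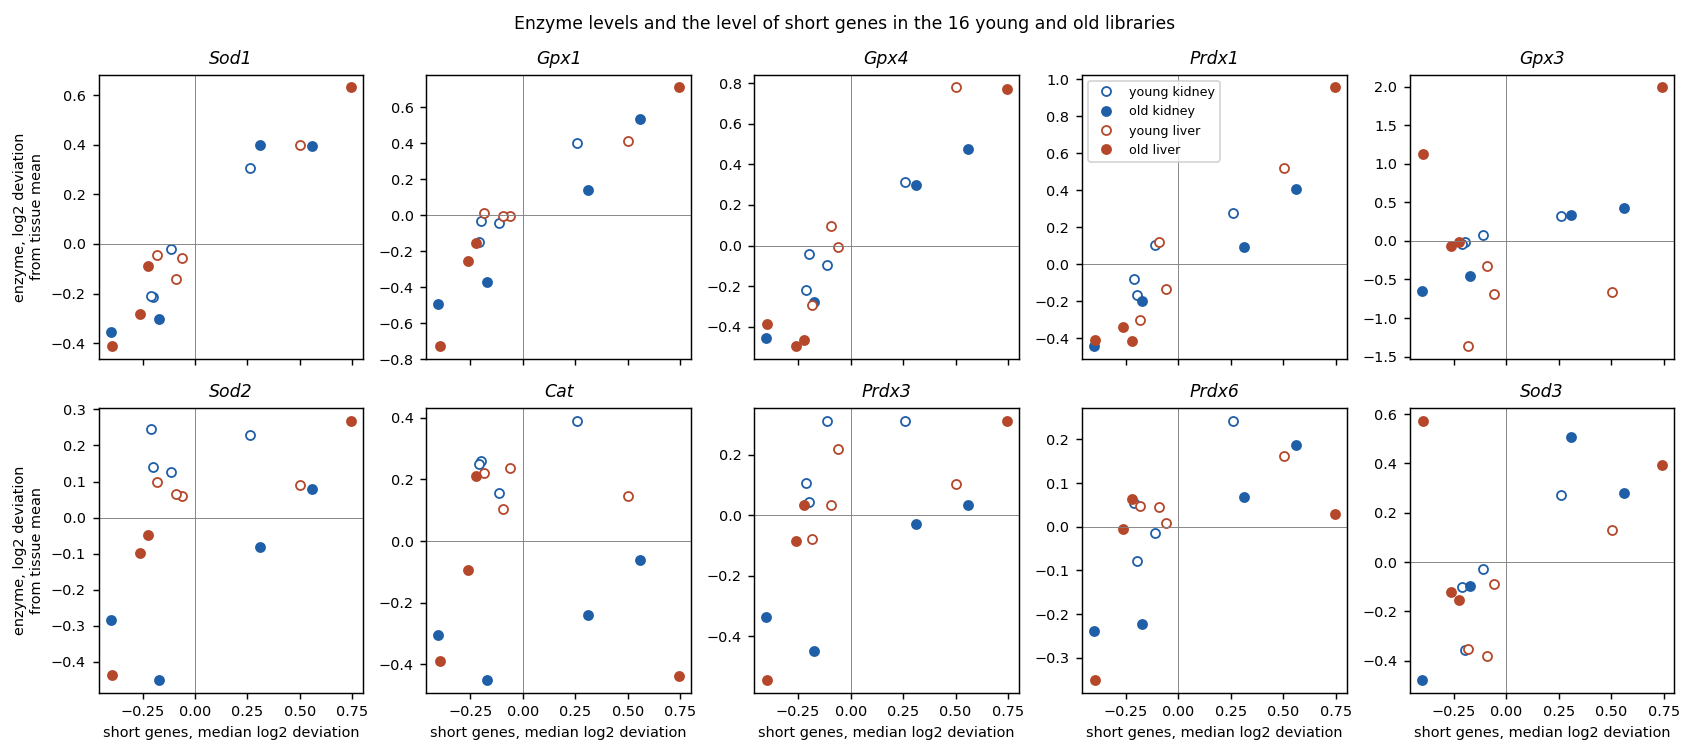
For the 16 young and old libraries, each panel plots the log2 deviation of 1 enzyme from its tissue mean (vertical, scale differs between panels) against the median log2 deviation of genes with exons under 1000 bp (horizontal). Sod1, Gpx1, Gpx4 and Prdx1 lie along a rising line in both tissues, and Cat in old kidney (filled blue) lies below young kidney (open blue) at both low and high horizontal values.

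Age in the liver moved no member past the threshold. None of the 10 passed in edgeR, against 2.46% of all genes, and 1 had an unadjusted p under 0.05 (14.7% of all genes). DESeq2 called 1 member, where it called 881 of 17297 genes in all. That member was Gpx3, which was 11.3, 7.1, 14.5 and 11.5 CPM in young liver. In old liver it was 72.4, 17.4, 39.8 and 18.1 CPM. All old values were above all young values, at a log2 difference of 1.76 (SE 0.44, edgeR adjusted p = 0.0682). The groups did not overlap, in either direction, for 10.1% of all genes. By DESeq2 the adjusted p was 0.00294. It was 0.0388 without the filter on low counts, 0.0420 with the length and GC trend removed, 0.0453 without old liver replicate 2 and 0.0346 without old liver replicate 4. In all, Gpx3 passed in 6 of 17 other settings and in 2 of the 8 that left out a library. Without old liver replicate 1 the log2 difference was 1.20 (edgeR adjusted p = 0.0623), and the highest adjusted p was 0.176, without young liver replicate 2. These liver levels were small beside those of kidney, so kidney transcripts were measured in the same libraries. The 8 tubule markers summed to 0 to 0.30 CPM in young liver and 0.066 to 0.64 CPM in old liver, against 10521 CPM or more in young and old kidney. In 3C liver replicate 4, where they reached 15.9 CPM, Gpx3 was 73.4 CPM, the highest of its group. It was about as high where tubule markers were low, at 72.4 CPM in old liver replicate 1 (markers 0.088 CPM) and 71.1 CPM in DMSO liver replicate 3 (markers 0.95 CPM). The part of kidney transcripts in the Gpx3 values was not tested.

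The other 9 members in liver lay between log2 -0.32 (Cat, SE 0.22) and 0.39 (Sod3, SE 0.21) with age. Old liver replicate 1 stood apart for several of them. Prdx1 was 3514 CPM there and 1358 to 1432 in the other 3 old livers. Gpx4 was 688 CPM there and 286 to 308 in the others, and Gpx1 6388 against 2356 to 3507. Cat did not follow, at 2748 CPM in that library and 2844 to 4321 in the others. With all libraries the log2 age difference was 0.02 for Prdx1, -0.22 for Gpx4 and -0.11 for Gpx1. Without this library it was -0.46, -0.64 and -0.46 (edgeR adjusted p = 0.322, 0.191 and 0.314).

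Whether age acted differently in the tissues was tested as an interaction. No member passed in edgeR (1.72% of all genes), and 1 had an unadjusted p under 0.05 (14% of all genes). DESeq2 called Gpx3, where it called 736 of 19561 genes in all. The liver minus kidney difference of the log2 age effects was 1.83 for Gpx3 (SE 0.63, edgeR adjusted p = 0.174, DESeq2 adjusted p = 0.0304) and 0.19 for Cat (SE 0.30, adjusted p = 0.830).

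**Figure D4:**
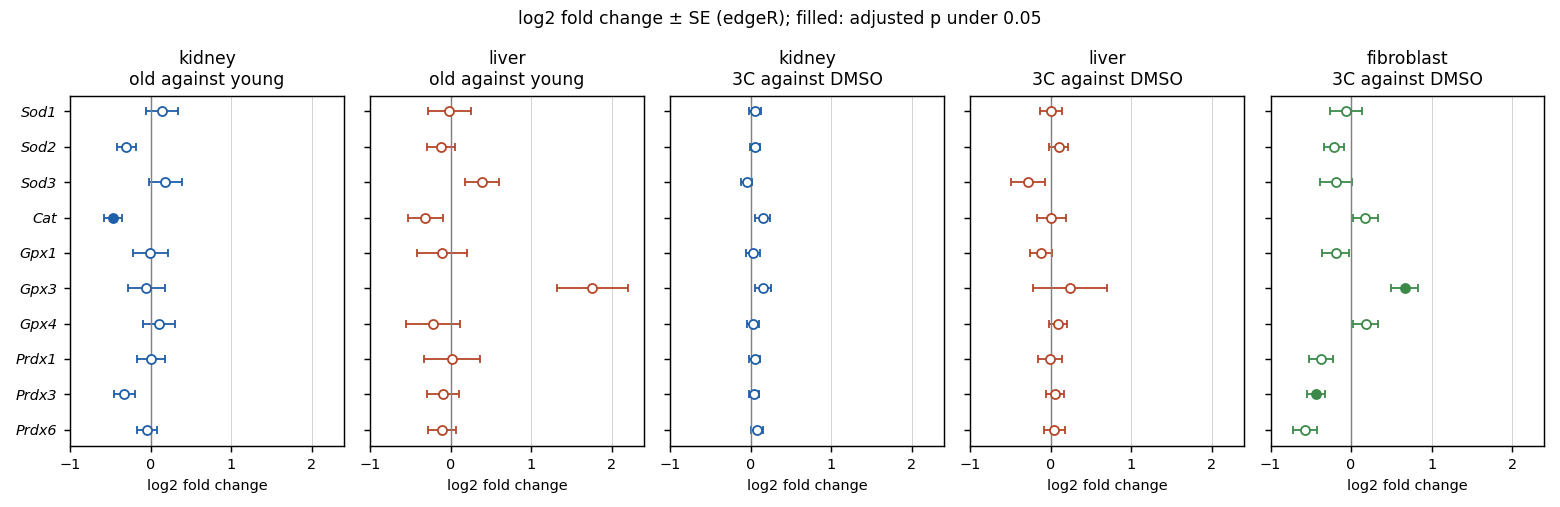
Points give the log2 fold change of each enzyme with its SE (bars) in the 5 comparisons, filled where the edgeR adjusted p is under 0.05. Cat in old kidney, and Gpx3 and Prdx3 in fibroblasts with 3C, are the filled points, and the 3C points of kidney lie between -0.05 and 0.15.

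3C in the kidney left the members near their DMSO levels. None passed, 0% of all genes passed, and no member had an unadjusted p under 0.05, where 1786 genes (11.9%) did. DESeq2 called 221 genes and none of the members. The log2 differences ran from -0.05 (Sod3) to 0.15 (Gpx3), with SE of 0.061 to 0.10. Gpx3, the largest, was 16507, 17590, 16833 and 15930 CPM with DMSO and 19881, 16842, 20300 and 18622 with 3C. Of the 4 treated values 3 were above every control value, and 1 lay within their range. Cat was 416 to 538 CPM with DMSO and 449 to 559 with 3C (log2 0.15, SE 0.091, edgeR adjusted p = 0.568). The macrophage markers summed to 413 to 457 CPM with DMSO and 262 to 398 with 3C.

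3C in the liver gave no call either, with 0% of all genes past the threshold in edgeR, 436 genes (3.34%) at an unadjusted p under 0.05 and 7 genes called by DESeq2. No member had an unadjusted p under 0.05. The log2 differences ran from -0.28 (Sod3, SE 0.21) to 0.24 (Gpx3, SE 0.47). Leaving out 1 library moved the Gpx3 difference to between -0.25 and 0.90, with no call. Cat was 2543 to 3116 CPM with DMSO and 2253 to 3546 with 3C. The interaction of 3C with tissue passed for no member and for 0% of all genes, with 554 genes (3.57%) at an unadjusted p under 0.05 and none called by DESeq2.

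3C in skin fibroblasts went with more Gpx3 and less Prdx3. Gpx3 was 301, 238 and 328 CPM with DMSO. It was 409, 432 and 526 CPM with 3C, above every control value. The rise of 58.5% corresponds to a log2 difference of 0.66 (SE 0.16, edgeR adjusted p = 0.0473). Prdx3 was 62.1, 66.6 and 65.5 CPM with DMSO. It was 44.4, 51.0 and 47.3 CPM with 3C, below every control value. Prdx3 fell by 26.1%, a log2 difference of -0.44 (SE 0.11, edgeR adjusted p = 0.0473). These were 2 of 10 members, where 4.22% of all genes passed, 2.43% upward and 1.78% downward. Both adjusted p values lie close to the threshold. Leaving out any 1 library left Gpx3 at adjusted p values up to 0.129 and in the call only without 3C replicate 1, and left Prdx3 out of the call each time, with adjusted p values of 0.0718 to 0.170. With the length and GC trend removed, Prdx3 was at log2 -0.28 (adjusted p = 0.226).

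The other peroxiredoxin members, Prdx6 and Prdx1, lay lower as well. Prdx6 was 279, 262 and 281 CPM with DMSO and 147, 187 and 214 with 3C. The log2 difference was -0.57 (SE 0.15, edgeR adjusted p = 0.0614), DESeq2 gave an adjusted p of 0.00718, and Prdx6 passed in 5 of 15 other settings, of which 1 of the 6 that left out a library (without 3C replicate 3, edgeR adjusted p = 0.0214). Prdx1 was 546, 478 and 491 CPM with DMSO and 326, 408 and 431 with 3C (log2 -0.37, SE 0.15, edgeR adjusted p = 0.185). All 3 peroxiredoxin members and Gpx3 had groups that did not overlap, 4 of 10 members, against 25.7% of all genes. The 3 dismutases and Gpx1 lay at log2 -0.06 to -0.21, and Cat and Gpx4 at 0.18 each, with no call. The macrophage markers summed to 225 to 289 CPM with DMSO and 85.3 to 135 with 3C, with 2 of 8 called lower, and the 5 fibroblast markers to 7954 to 11096 and 7315 to 10679. Their part in these differences was not tested.

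Genes that feed or recycle these enzymes were counted by list. In old kidney, of 16 tested sources of superoxide and peroxide, 4 rose, 3 fell and 9 did not pass (median log2 0.05, against 0.02 over all genes, of which 11.5% passed). Those that rose were subunits of the phagocyte NADPH oxidase, with Ncf1 (log2 2.33, SE 0.40), Ncf4 (2.31, SE 0.38) and Cybb (2.04, SE 0.40) the largest. All 8 macrophage markers rose in the same comparison, and their part in these differences was not tested. Among those that fell were Nox4, the kidney NADPH oxidase (log2 -0.72, SE 0.13), and Acox3 (log2 -0.52, SE 0.096), a peroxisomal oxidase that makes hydrogen peroxide in the compartment where catalase acts. Nox4 was 607 ± 44 CPM (SD, n = 4) in young kidney and 353 ± 59 (n = 4) in old kidney.

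Of 17 genes of thiol recycling and NADPH supply, 1 rose and 2 fell in old kidney, where 11.5% of all genes passed. G6pdx, an NADPH-making enzyme of the pentose phosphate pathway, rose (log2 0.50, SE 0.13). Nnt, the mitochondrial transhydrogenase that supplies NADPH to the peroxiredoxin system, fell (log2 -0.51, SE 0.090), as did the thioredoxin-binding Txnip (log2 -0.68, SE 0.13). Of 13 genes of metal and selenium supply 3 passed. Lrp8, a receptor for selenoprotein P, rose (log2 1.71, SE 0.30), and Sepsecs, needed to make selenocysteine (log2 -0.62, SE 0.17), and the copper importer Slc31a1 (log2 -0.39, SE 0.097) fell. None of the 6 tested relatives of the peroxidases and peroxiredoxins passed (median log2 0.26).

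In old liver only Ncf1 (log2 1.61, SE 0.27) and Ncf4 (log2 1.59, SE 0.36) rose among the sources (2 of 17), and none of 17 recycling, 11 supply and 6 relative genes passed, against 2.46% of all genes. In these livers 2 of 8 macrophage markers rose (sums of 891 to 1304 CPM in young and 1349 to 2574 in old liver), as did 4 of 5 B and plasma cell markers, none of 4 tested T cell markers passed, and the part of these cells was not tested. In 3C fibroblasts Selenop, which encodes the selenium carrier selenoprotein P, rose (log2 1.19, SE 0.20), from 76.2 ± 9.7 to 172 ± 53 CPM (SD, n = 3 each), and it was the only gene of 13 for supply to pass. Ncf1 (log2 -1.49, SE 0.31) and the monoamine oxidase Maoa (log2 -0.70, SE 0.13) fell, 2 of 13 sources, and none of 17 recycling and 5 relative genes passed, against 4.22% of all genes. In the same comparison 2 of 8 macrophage markers fell, and their part in the Ncf1 difference was not tested. In 3C kidney and liver no listed gene passed.

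Open chromatin at the members' promoters was read from the peak lists, with the strongest peak within 1000 bp of a start site. All 10 members had such a peak in every kidney library, 8 in every young liver library and 9 in every old liver library. Of 20636 protein-coding genes, 65.1% had one in every young kidney library, 63.3% in old kidney, 59.1% in young liver and 58.9% in old liver. The 2 members without a peak throughout young liver were Sod3 and Gpx3. Sod3 had a promoter peak in 0 of 3 young and 3 of 3 old liver libraries, and Gpx3 in 1 of 3 and 2 of 3. These counts include weak peaks. The Sod3 peaks of old liver had a −log10 q of 1.41, 7.19 and 2.46 and the young liver peak of Gpx3 0.661, so that at a minimum of 5 Sod3 kept 1 of 3 in old liver and Gpx3 0 of 3 in young liver. At that minimum Sod1 and Gpx4 also lacked a peak in a young liver library and Gpx1 and Gpx4 in an old one, and 6 members rather than 8 and 9 had a peak in every library of either liver group, against 44.8% of all genes in young and 45.8% in old liver. In kidney the Gpx3 peak was modest beside its mRNA, with a fold enrichment over the local background of 3.47 to 3.70 in young kidney, in the middle of all peaks (percentiles 50.6 to 66.1).

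Prdx3 and Sod2, the mitochondrial pair, had the strongest promoter peaks among the members, with medians of 13.005 and 9.13 in young kidney and 9.46 and 8.18 in young liver. Cat in kidney was the member whose old values exceeded all young ones, with fold enrichments of 6.16, 6.55 and 8.55 in young kidney and 9.98, 10.4 and 11.5 in old kidney. Its mRNA was lower in old kidney. Such a rise, without overlap, was seen for 1 of 10 members and for 16.5% of 12790 genes with a peak in all 6 kidney libraries. In liver, Sod1 went from 2.26 to 3.34 in young to 3.97 to 4.34 in old libraries, 1 of 8 members compared, against 8.25% of all genes. No member's old values lay wholly below the young ones (8.58% and 5.77% of genes). Young kidney libraries held 115836 to 128395 peaks and old ones 93072 to 108970, and no test was run on enrichments.

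**Figure D5:**
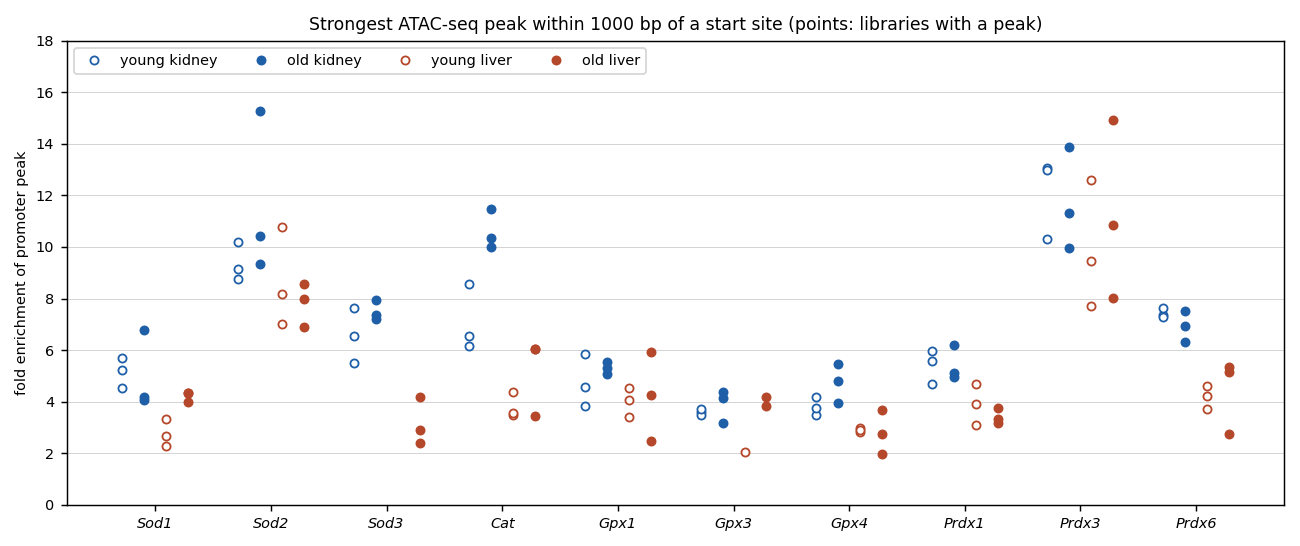
Each point is the fold enrichment of the strongest ATAC-seq peak within 1000 bp of a start site in 1 library, for young (open) and old (filled) kidney (blue) and liver (red). Cat in old kidney lies at 9.98 to 11.5, above the young libraries, and Sod3 has no point in young liver.

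Over the 10 group means of log2 CPM, Cat and Gpx1 followed each other (Pearson r = 0.994), as did Sod2 and Prdx3 (r = 0.956), while Sod1 and Sod3 ran opposite (r = -0.983). These 10 points share their libraries and are dominated by tissue. They also mix the sets whose tallies of non-unique reads differ. Among 10147 genes measured in every group, the closest to Sod1 were Lmf1 and Ccs (r = 0.998 each), to Cat Larp1b and Ak3 (r = 0.998 each) and to Gpx1 Ak3 (r = 0.998) and Cd59a (r = 0.997). For Gpx3 they were Plau and Nxpe3 (r = 0.996 each). Gpx4 had the least close partners, Wdr5b (r = 0.969) and Atp6v1e1 (r = 0.967).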

How the data were processed

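RNA-seq (38 libraries) and ATAC-seq (12 libraries) were analysed from the deposited files. Per the authors' notes, RNA reads went through Trimmomatic 0.39, HISAT2 2.2.1 (mm10) and HTSeq 0.12.4, which counted without strand, and the deposited counts are whole reads for 24984 genes. ATAC-seq alignment was by Bowtie2 2.3.5.1, and MACS2 peaks came from the authors as a separate list per library. The deposited lists give each peak's fold enrichment as a ratio and its −log10 q. GRCm38 positions and gene models were used, and 24534 of the gene symbols (98.2%) were found in GENCODE vM21.

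Groups and replicate numbers came from the sample labels, which do not say that replicates are separate mice or cultures, so p values measure only the spread between these samples. The 10 members and the gene lists were chosen with earlier results of these data known. Each comparison was fitted on its own groups in edgeR 4.0.16 (R 4.3.3) with TMM factors, filterByExpr (minimum count 10) and quasi-likelihood F tests (two-sided). Calls were made at 0.05 after Benjamini-Hochberg adjustment over all genes tested. CPM values used TMM factors over all 38 libraries, and FPKM the RefSeq exon lengths of 637 to 3824 bp. All members were named. Of other lists, up to 3 called genes per direction with the largest change were named, and the 2 genes most like each member by Pearson correlation of group means. A gene that this rule named is not reported here. Alternatives were DESeq2 1.42.0, other size factors and filters, a fold above 2, a replicate block, a length and GC trend, and each library left out. The fits were first tested on simulated data. With age, 1.5-fold changes were recovered for 5 of 58 genes in kidney and 2 of 68 in liver. For 4-fold changes it was 61 of 68 and 63 of 69. With 3C, 1.5-fold changes were recovered for 42 of 65 genes in kidney, 10 of 72 in liver and 24 of 61 in fibroblasts. Changes of 1.5-fold could thus go without a call. Peaks were compared by range without a test, and promoter motifs by exact letters on both strands.

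No pair of replicates agreed within sampling noise, with a chi-square per degree of freedom of at least 8.12. Total gene counts of 14238228 to 43704147 put at least 101 reads behind every member value.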

Additional observations from a re-analysis of the deposited data

Results flagged for a closer look

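In 6 of 80 sets of 4 libraries, 1 member and group each, the highest or lowest library stood apart from the other 3 by more than Dixon's 95% limit, where chance gives about 4. Each value here is the gap to the nearest library over the whole range. In young liver, replicate 4 was highest for Sod1 (0.843, 1574 CPM against 1082 to 1159) and for Gpx1 (0.959, 5204 CPM against 3890.4 to 3945). In old liver, replicate 1 was highest for Gpx4 (0.944, 688 CPM against 286 to 308) and for Prdx1 (0.965, 3514 CPM against 1358 to 1432). These libraries also had the highest median of short genes in their groups, at log2 0.50 and 0.74 above the tissue mean. In DMSO liver, replicate 3 was highest for Prdx1 (0.967, 1280.0 CPM against 937 to 949), with short genes at log2 0.21. In 3C liver, replicate 1 was lowest for Sod2 (0.873, 195 CPM against 242 to 248), with short genes at log2 -0.01. The part of short genes in these values was not tested.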

How the results depend on the processing

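Of 1800 member differences under alternatives, 1738 stayed on their side of the threshold (most were not called), 32 lost a call, 23 gained one and 7 changed sign where a value was called, and 115 uncalled ones changed sign. In kidney with age, 1 member passed in the fit as reported. With a fold above 2, upper quartile factors or a replicate block 0 passed, with the length and GC trend removed 5, with both block and trend 2, and with each library left out 0 to 1. All genes called there (1669) became 882 with the fold, 3064 by DESeq2, 1057 with the block, 3300 with the trend, and 833 to 3440 with a library left out, the highest without old kidney replicate 2 and at most 1079 without young replicates 1, 2 or 3 or old replicate 4.

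In liver with age, 0 members passed. DESeq2, no filter, the trend, and block with trend each gave 1 (Gpx3), and leaving out a library gave 0 to 1. All genes called (309) became 881 by DESeq2, 139 with the block, 492 with the trend and 77 to 588 with a library left out, 588 without old liver replicate 1, and at most 167 without any young replicate or old replicate 2 or 3. DESeq2 gave 1 member (Gpx3) in the age interaction, where all genes called (258) became 736 by DESeq2, 102 with the block, 456 without old liver replicate 1 and 114 to 169 without young kidney 1, 2 or 3, old kidney 2 or 4, young liver 1 or 4 or old liver 2. In fibroblasts 2 members passed, 0 with the fold, 1 with RLE factors (Prdx3) or the block (Gpx3) and 0 to 1 with a library left out. All genes called (567) became 251 with the fold, 1016 by DESeq2, 910 without a filter, 884 with the trend, 1018 with block and trend and 155 to 588 with a library left out, at most 373 without any DMSO replicate or 3C replicate 2. With 3C, DESeq2 called 221 genes in kidney and 7 in liver, and leaving out a library gave 0 to 29 in kidney, the highest without 3C replicate 2. Between tissues a fold above 2 left 5987 of 9187 genes in young mice and 6336 of 10765 with DMSO.

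With the trend removed, Gpx4 in old kidney went to log2 -0.4137. Between tissues in young mice Sod2 went to -0.4336 and Prdx3 to 0.3943 (-0.4358 and 0.3971 with the block), and with DMSO Prdx3 went to 0.03285 (0.03374). The trend also ended the calls of Gpx4 with DMSO between tissues and of Prdx3 in fibroblasts (log2 0.14 and -0.28, or 0.15 and -0.28 with the block) and gave one for Sod2 with DMSO (log2 -0.66, or -0.65 with the block). Removing the trend moved the median of all genes in young kidney against liver from 0.08 to -0.19. Without TMM factors 6 of 10 members kept their highest group and 88 of 100 group means moved by over 1 SD. The cause of these changes was not tested. The replicate block changed no other member count beyond 1.5 times, and same-numbered pairs correlated at -0.30 to 0.43. In no comparison was every pair above 0.1, so pairing was not used, though the labels do not tell whether equal numbers share a mouse. Of 4 pairs, 3 exceeded 0.1 in young kidney against liver, and 3 of 4 kidney libraries correlated best with the liver library of their number there and between DMSO tissues. The same count, 3 of 4, was seen between DMSO and 3C livers, which come from differently treated mice, so it does not tell whether numbers mark a mouse. With the block the adjusted p was 0.0965 for Cat with age in kidney, 0.0843 for Prdx3 in fibroblasts and 0.0513 for Gpx1 between old tissues, which lost their calls, and Gpx4 gained one between young tissues (log2 0.36, adjusted p 0.0146). Depth limits Gpx3 in liver most, at 101 reads in 1 library, and the other members had 576 reads or more in every library.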
